A study of Homo sapiens with 2 samples.

Results

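The genes of the spliceosome and its splicing factors were examined in a ChIP-seq peak list of RFX6. MHCC-97H, an established line of human hepatocellular carcinoma, had been made to overexpress HA-tagged RFX6 from a plasmid, and its crosslinked chromatin was precipitated with an anti-HA antibody. Besides this 1 ChIP library there was 1 input library from MHCC-97H, neither was replicated, and no precipitation from cells without HA-RFX6 was analysed here. The genes were chosen by symbol among the protein-coding genes of RefSeq (GRCh38), taking those that start with SNRP, SF3A, SF3B, PRPF, SRSF or U2AF, or with LSM followed by a digit. This rule gave 61 of 20037 genes. The list held 5019 distinct intervals on chromosomes 1 to 22 and X, and the read depth behind them was unknown. Each carries a whole-number score from the authors, which ranged from 13 to 170 with a median of 30. What the score stands for is not stated, and it was used only to rank intervals.

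The spliceosome removes introns from pre-mRNA. It is built from small nuclear ribonucleoproteins (snRNPs), in which Sm or Sm-like (LSM) rings surround the U snRNAs, and from factors that join in turn. U2AF and the SF3A and SF3B complexes recognise the 3′ splice site and the branch point, PRPF proteins belong to the tri-snRNP and to the machinery of activation, and the serine and arginine rich SRSF proteins bind exons and steer the choice of splice sites. RFX6 belongs to the regulatory factor X family, whose members bind a palindromic DNA element, the X-box. A typical housekeeping promoter, as most splicing genes have, is rich in G and C and in CpG.

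RFX6 intervals lay at the ends of 19 of the 61 splicing genes, when the midpoint of an interval had to be within 1 kb of either end of the gene. The share was 31.1% (95% Wilson interval 20.9% to 43.6%), beside 15.5% of all protein-coding genes. The genes were chosen with a surplus of intervals in broadly expressed families, splicing genes included, already known from these data. The higher share is therefore a description and not a new finding. A further 2 genes, LSM12 and LSM5, had an interval in the gene body only (3.28%, 0.904% to 11.2%), beside 4.06% of all genes. The remaining 40 genes had none. Highest were PRPF6 with a score of 66, SF3B2 with 65 and SRSF7 with 64. In 12 of the 19 genes every interval at an end had a score below 30. With a score of at least 30, 7 of 61 genes had an interval at an end (11.5%, 5.67% to 21.8%), beside 9.5% of all genes, and these shares were close to each other. The Wilson intervals cover the counting of genes only, and with 1 library no test between conditions was possible.

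Promoter sequences are shown for the gene with the highest score in each role class, as far as a window could be printed, namely SF3B2, PRPF6, SNRPA1, SRSF7 and LSM2. SF3B5 was added after its values were seen, because it was the only splicing gene with an X-box in its window. The sequences are the 250 bases before the annotated start, from RefSeq on GRCh38.p14, on the strand of the gene. They lie at chr6:144095574-144095823 on the minus strand for SF3B5, chr11:66052114-66052363 on the plus strand for SF3B2 and chr20:63980882-63981131 on the plus strand for PRPF6. Those of SNRPA1, SRSF7 and LSM2 lie on the minus strand at chr15:101295249-101295498, chr2:38751495-38751744 and chr6:31806967-31807216. Capitals mark matches on either strand to an X-box, its single arm GTTGCC, the NF-Y box CCAAT, the ETS core CCGGAAG, the GC box GGGCGG, the NRF1 core GCGCATGC and the YY1 core AAGATGGC. An arm may lie inside an X-box.
SF3B5: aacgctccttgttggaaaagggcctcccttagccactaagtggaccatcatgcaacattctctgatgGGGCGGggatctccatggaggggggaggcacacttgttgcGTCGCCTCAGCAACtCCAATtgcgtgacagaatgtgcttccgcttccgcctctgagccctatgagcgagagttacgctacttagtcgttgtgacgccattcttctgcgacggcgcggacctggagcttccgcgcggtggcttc
SF3B2: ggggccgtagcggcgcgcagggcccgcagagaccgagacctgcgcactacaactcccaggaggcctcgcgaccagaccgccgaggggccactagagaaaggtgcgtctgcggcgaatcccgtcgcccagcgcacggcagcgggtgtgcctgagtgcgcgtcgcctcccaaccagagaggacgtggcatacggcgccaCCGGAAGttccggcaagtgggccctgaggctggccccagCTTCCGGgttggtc
PRPF6: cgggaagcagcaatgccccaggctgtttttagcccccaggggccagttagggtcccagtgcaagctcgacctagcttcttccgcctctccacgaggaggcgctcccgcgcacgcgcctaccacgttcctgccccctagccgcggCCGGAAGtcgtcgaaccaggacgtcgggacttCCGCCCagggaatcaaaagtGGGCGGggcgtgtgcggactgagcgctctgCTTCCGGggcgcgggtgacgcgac
SNRPA1: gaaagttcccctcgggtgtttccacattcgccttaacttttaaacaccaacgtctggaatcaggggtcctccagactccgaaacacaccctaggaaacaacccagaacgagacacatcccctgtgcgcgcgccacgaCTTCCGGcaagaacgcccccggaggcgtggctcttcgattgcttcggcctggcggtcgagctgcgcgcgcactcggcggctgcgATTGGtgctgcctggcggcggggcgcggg
SRSF7: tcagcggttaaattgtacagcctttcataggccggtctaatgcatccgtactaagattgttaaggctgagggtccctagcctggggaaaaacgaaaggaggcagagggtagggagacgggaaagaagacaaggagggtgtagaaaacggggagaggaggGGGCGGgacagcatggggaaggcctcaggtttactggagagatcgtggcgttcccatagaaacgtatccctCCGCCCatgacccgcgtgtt
LSM2: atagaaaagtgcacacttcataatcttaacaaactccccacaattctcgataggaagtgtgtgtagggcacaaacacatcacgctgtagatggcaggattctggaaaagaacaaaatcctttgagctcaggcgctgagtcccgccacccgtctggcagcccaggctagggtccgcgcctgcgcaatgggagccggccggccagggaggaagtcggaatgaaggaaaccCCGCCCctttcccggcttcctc

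In SF3B5 the X-box began 143 bases before the start, at chr6:144095703-144095716, and was followed by an NF-Y box that began 128 bases before it. Both lay inside the deposited interval, which covered 188 of the 250 bases. The interval covered 234 of the 250 bases in SF3B2 and 242 in PRPF6, and the 2 ETS cores of each promoter were inside it. It covered 80 bases in SNRPA1 and 14 in LSM2. In SRSF7 it covered 0 bases, since it lay on the other side of the start. The strong intervals of PRPF6 and SF3B2 were thus on sequence without an X-box match in these windows, whereas the X-box of SF3B5 was under an interval of score 22.

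**Figure D1:**
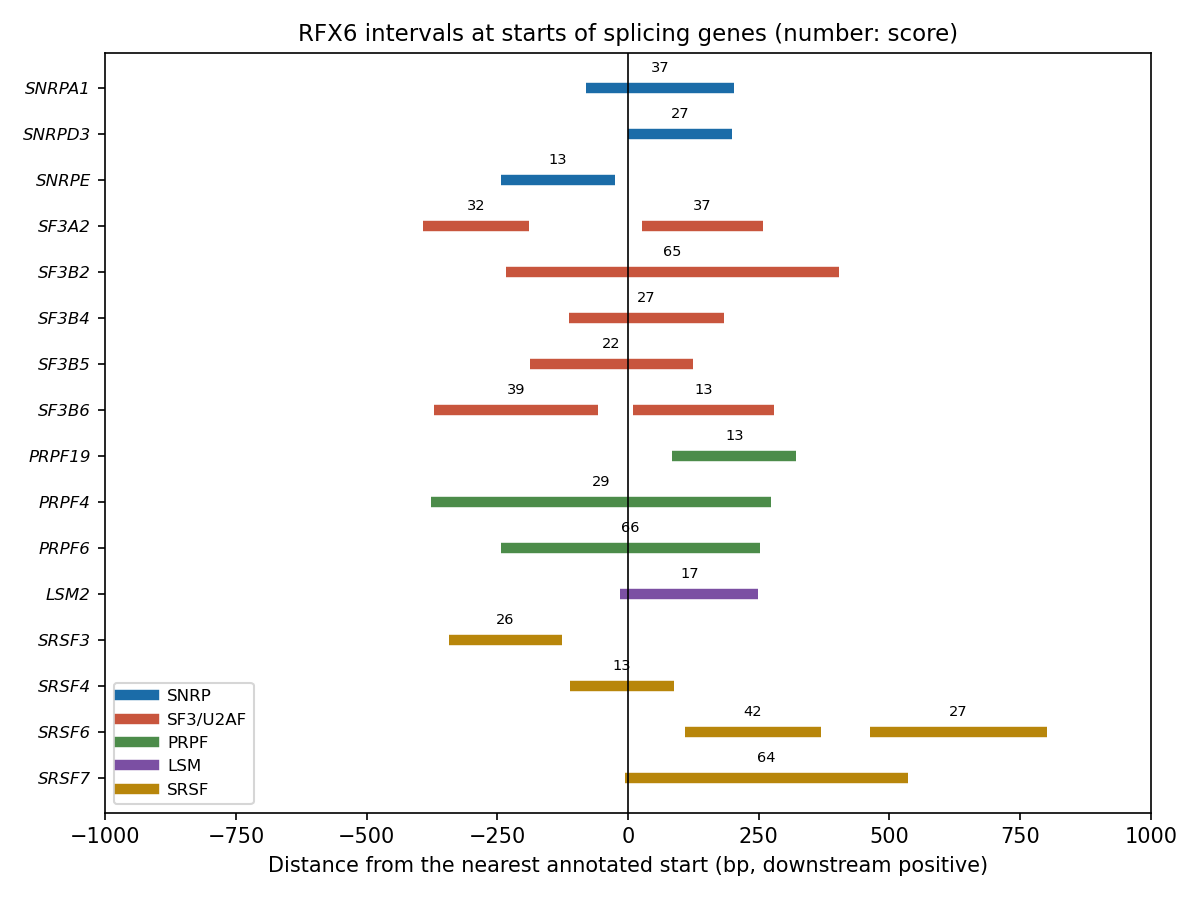
Each bar spans 1 deposited interval relative to the nearest annotated start of the gene (horizontal axis, bp, downstream positive), with its score above it and its colour giving the role class. The 19 intervals at a gene end that are also within 1 kb of an annotated start are shown, 18 of them with the midpoint within 300 bp of it. Among all protein-coding genes, 72.7% of the 3012 pairs of an interval and a start were within 300 bp. The body intervals of LSM12 and LSM5 beside alternative starts are left out.

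The position of the intervals was examined next. The 19 genes had 22 intervals at their ends, as SF3A2, SF3B6 and SRSF6 had 2 each. The strand was known for 20 of the 22, and 19 of them were within 1 kb of an annotated start. The same share was not worked out for the intervals at ends of all protein-coding genes, so it is not read as a trait of splicing genes. The exception among the 20 was PRPF8, whose interval lay at the far end. For the 19 intervals the distance from midpoint to start ranged from 5 to 632 bp, with a median of 135 bp. The median was 178 bp over the 3012 pairs of an interval and a start among all protein-coding genes. The midpoint was downstream of the start in 12 of 19 intervals (63.2%) and upstream in 7, and the share downstream was 55.6% among all pairs. The intervals of the splicing genes had a median width of 267 bp (range 200 to 651), and those at ends of all protein-coding genes 282 bp.

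Many of these intervals were also near an end of another protein-coding gene, and whether that end was a start was not examined. An end of another protein-coding gene lay within 1 kb of the midpoint for 10 of the 22 intervals (45.5%). Of the 3054 intervals at protein-coding gene ends, 553 were near ends of at least 2 such genes (18.1%). The bases of these shares are unlike, since the 22 were reached through genes and a shared interval can be reached through each of its genes. A share per pair of gene and interval was not worked out, so the difference is not read as a trait of splicing genes. They belonged to 8 of the 19 genes, and for the other 11 the splicing gene was the only protein-coding gene at the interval. A peak list cannot tell which gene of such a pair an interval belongs to.

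Among the snRNP proteins, 3 of 12 genes had an interval at an end (95% Wilson interval 8.89% to 53.2%). SNRPA1, a protein of the U2 snRNP, had an interval of 283 bp at chr15:101295046-101295328 with a score of 37 (rank 1510 of 5019). It spanned the start of SNRPA1 and was also within 1 kb of an end of SNRPA1-DT, the divergent transcript. SNRPD3, which encodes the core Sm protein D3, had an interval of 200 bp with a score of 27 at chr22:24555650-24555849. It began at the first base of the gene, and an end of GUCD1 was within 1 kb. SNRPE, the core protein E of the same ring, had an interval with a score of 13, the lowest in the list, at chr1:203861603-203861820. The other Sm ring genes SNRPB, SNRPD1, SNRPD2, SNRPF and SNRPG had none, nor had SNRPN, the tissue-restricted relative of SNRPB. SNRPA and SNRPC, proteins of the U1 snRNP, and SNRPB2 of the U2 snRNP had none either. Thus SNRPD3 and SNRPE were the only genes of the Sm ring with an interval, and both were below the median score.

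The factors of branch point recognition had an interval at an end in 5 of 12 genes (41.7%, 19.3% to 68.0%), beside 15.5% of all genes. Of the 5, 4 were SF3B genes. SF3B is the complex that clamps the branch point, and 4 of its 6 genes here had an interval (66.7%), beside 15.5% of all genes. This subset was singled out after the values were seen, and its share rests on 6 genes only. With a score of at least 30, SF3B2 and SF3B6 kept an interval at an end, while SF3B4 and SF3B5 did not. SF3B2 had an interval of 637 bp at chr11:66052130-66052766 that spanned the start and had a score of 65 (rank 196, percentile 95.9). SNORD13F, a non-coding gene, also had an end there. SF3B6, the small protein that contacts the branch point, had 2 intervals. The upstream one, at chr2:24076384-24076697, had a score of 39 and was also within 1 kb of ends of FAM228B and TP53I3. The one just downstream of the start had a score of 13, so that the intervals on either side of this start differed in score. SF3B4, an RNA-binding protein upstream of the branch point, had an interval with a score of 27 over its start, and an end of MTMR11 was within 1 kb. SF3B5, the smallest gene of the list at 690 bp, had its interval at chr6:144095450-144095761 with a score of 22. SF3B1, the scaffold of the complex that is recurrently mutated in blood cancers, and SF3B3 had none, and the nearest intervals were 18477 and 84809 bp from their ends.

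Of the SF3A complex, SF3A2 alone had an interval (1 of 3 genes). It had 2, at chr19:2236432-2236633 with a score of 32 and at chr19:2236851-2237082 with a score of 37. They flanked the start at 291 bp upstream and 142 bp downstream, and both were within 1 kb of an end of PLEKHJ1. SF3A1 and SF3A3 had none. None of the 3 U2AF genes had an interval within 1 kb. U2AF2, the large subunit that binds the polypyrimidine tract, was just outside the limit, with the midpoint of an interval 1098 bp from its end. U2AF1 and U2AF1L4 were 102778 and 129573 bp from the nearest interval. Intervals on both sides of a start were thus seen in SF3A2 and SF3B6 among the splicing genes.

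Of the PRPF genes, 4 of 12 had an interval at an end (33.3%, 13.8% to 60.9%), beside 15.5% of all genes. PRPF6 bridges the U5 and U4/U6 parts of the tri-snRNP. Its interval of 496 bp at chr20:63980890-63981385 had the highest score of all splicing genes, 66 (rank 184, percentile 96.2), and its midpoint was 5 bp from the start. An end of SAMD10 was also within 1 kb. PRPF4, a U4/U6 protein, had an interval of 651 bp at chr9:113275281-113275931, the widest at an end of the splicing genes. It stood on 4 lines with scores from 27 to 29, covered all 300 bases of the promoter window, and was nearer to an end of CDC26, a subunit of the anaphase-promoting complex, than to that of PRPF4. A second interval of 1099 bp with a score of 23 lay inside PRPF4, 11204 bp from the start.

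PRPF19, a ubiquitin ligase needed for activation of the spliceosome, had an interval 203 bp downstream of the start with a score of 13. PRPF8 is the U5 protein at the catalytic centre. Its interval, also with a score of 13, was 561 bp beyond the far end of the gene and 34799 bp from the start, within 1 kb of an end of RILP. PRPF3, PRPF18, PRPF31, PRPF38A, PRPF38B, PRPF39 and PRPF40B had none. PRPF6 was therefore the only PRPF gene with a score of at least 30.

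The LSM genes were the class with the smallest share, with an interval at an end in 2 of 13 genes (15.4%, 4.33% to 42.2%), which was near the 15.5% of all genes. LSM2, a protein of both the nuclear ring on U6 snRNA and the cytoplasmic ring, had an interval of 264 bp at chr6:31806717-31806980 with a score of 17. LSM1, which marks the cytoplasmic ring of mRNA decay, had an interval with a score of 22, given on 2 lines, over an end. An end of BAG4 was within 1 kb of it. Both scores were below the lower quartile of intervals at ends of protein-coding genes (25). In LSM12 and LSM5 the interval was inside the gene. It was 1216 bp from the outer end of LSM12 (score 25) and 4918 bp from an end of LSM5 (score 17), but 300 bp and 124 bp downstream of alternative starts of these genes. LSM3, LSM4, LSM6, LSM7 and LSM8 of the ring on U6 had none, nor had LSM10 and LSM11 of the U7 snRNP, or LSM14A and LSM14B of cytoplasmic granules. Of the 7 genes LSM2 to LSM8, 1 had an interval at an end (14.3%, 2.57% to 51.3%).

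Of the SRSF genes, 5 of 12 had an interval at an end (41.7%, 19.3% to 68.0%), beside 15.5% of all genes. No end of another protein-coding gene lay within 1 kb of the intervals of these 5, unlike in the other classes. SRSF7, a shuttling splicing regulator, had an interval of 542 bp at chr2:38750825-38751366 with a score of 64 (rank 218, percentile 95.5). It lay inside the gene, 398 bp from the outer end and 265 bp downstream of the nearest annotated start. SRSF6 had 2 intervals inside the gene, at 239 bp downstream of the start with a score of 42 and at 632 bp with a score of 27. In both genes the intervals were thus on the transcribed side. SRSF3, the smallest classical member of the family, had an interval 235 bp upstream of the start with a score of 26. SRSF4 had one over its start with a score of 13. SRSF2, which is recurrently mutated in myeloid disease, had an interval outside the gene, 426 bp from its end, with a score of 18 on 2 lines. SRSF1, SRSF5, SRSF8, SRSF9, SRSF10, SRSF11 and SRSF12 had none.

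**Figure D2:**
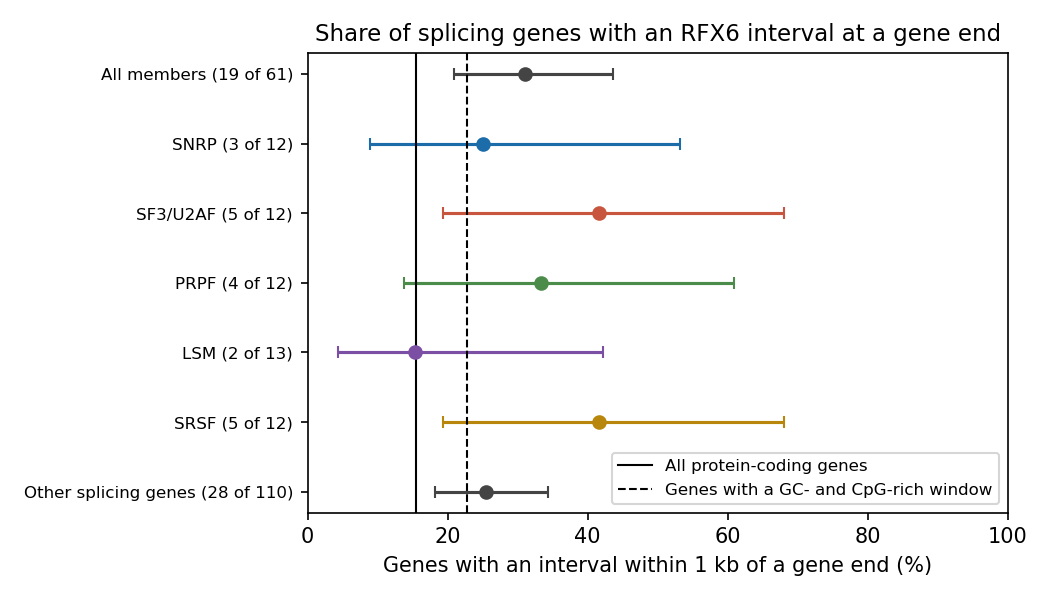
Points give the percentage of genes with an interval within 1 kb of a gene end, for all splicing genes, for each role class and for other splicing genes, and bars are 95% Wilson intervals. Lines mark all protein-coding genes (15.5%) and genes with a promoter window rich in GC and CpG (22.7%), and the bars of the role classes overlap each other.

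The role classes could not be told apart at this number of genes, as the Wilson interval of each class overlapped those of the other 4. The SF3B share of 4 of 6 was singled out after the values were seen.

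The scores were then compared with those of other promoters. The 22 intervals had a median score of 27 (quartiles 17.2 and 37), compared with 32 (25 and 43) for the 3054 intervals at ends of protein-coding genes. Scores below 20 made up 7 of the 22 (31.8%), compared with 12.7% of the 3054. The lowest score, 13, was found for 5 of the 22 (22.7%), compared with 3.18%. Per gene, 7 of the 19 had a highest score of at least 30 (36.8%), compared with 61.4% of the 3100 genes with an interval at an end. These 7 were PRPF6, SF3B2, SRSF7, SRSF6, SF3B6, SF3A2 and SNRPA1. At the top, PRPF6, SF3B2 and SRSF7 were above percentile 95 of the whole list, and the next gene, SRSF6, was at percentile 78.0.

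**Figure D3:**
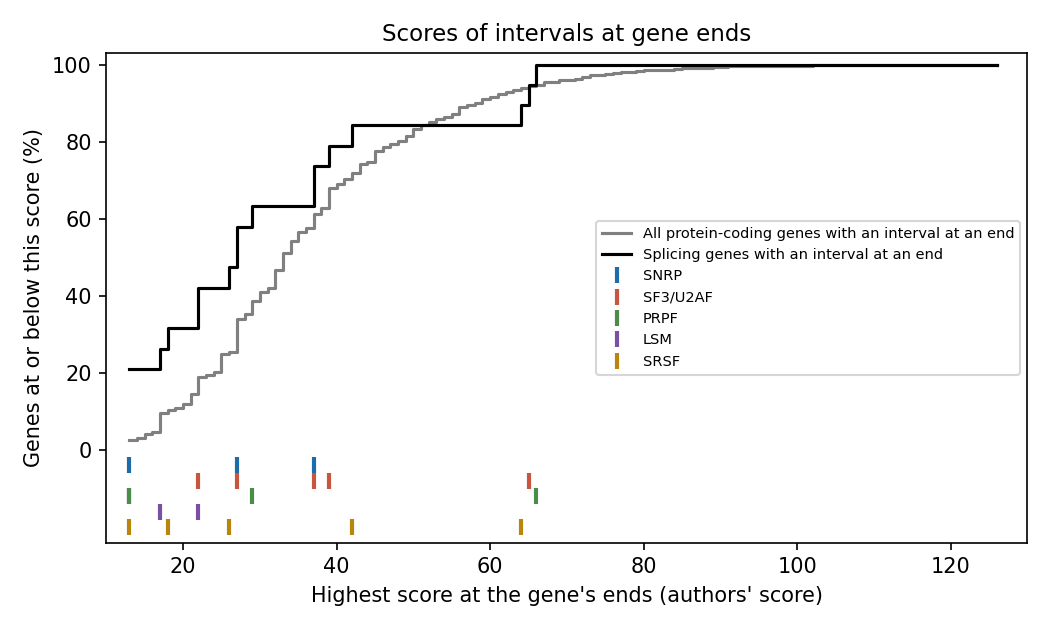
Cumulative percentage of genes (vertical axis) by the highest score of an interval at their ends (horizontal axis), for the 19 splicing genes in black and all 3100 protein-coding genes with an interval in grey, with a tick for each splicing gene coloured by role class. The black line is above the grey one up to a score of about 50, as 12 of the 19 genes are below 30. It is above again from a score of 65, as the highest score of a splicing gene is 66.

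Among the 40 genes without an interval, the median distance from an end to the nearest midpoint was 98104 bp. It ranged from 1098 bp (U2AF2) to 1684579 bp (LSM8). It was up to 5 kb in 2 genes, U2AF2 and LSM4, and over 100 kb in 20. The same distance was not worked out for other protein-coding genes, so it is not read as a trait of splicing genes. The median length of the 40 genes was 16597 bp, compared with 11832 bp for the 19 genes with an interval at an end. It was 24115 bp for all protein-coding genes. Without read depth, a gene with no interval cannot be told from one with too few reads.

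Promoter composition was compared, because the starts of most splicing genes are of the housekeeping kind. A RefSeq window of 300 bases, from 250 before to 50 after the start, was at hand for 52 of the 61 genes and 15843 of the 20037 protein-coding genes (79.1%). Since the latter is under 80%, a check over all protein-coding genes is void, and shares over windows describe only the genes that have one. Genes without a window at hand included LSM1, LSM6, LSM14A, PRPF3, PRPF39, SF3B3, SNRPD1 and SRSF2. Of the 52 windows, 47 had a GC content of at least 55% and an observed over expected CpG of at least 0.6 (90.4%, 79.4% to 95.8%), compared with 59.5% of the 15843. Among genes with such a window, 16 of 47 splicing genes had an interval at an end (34.0%, 22.2% to 48.3%), beside 22.7% of the 9426 protein-coding genes. The Wilson interval included the latter value. When only annotated starts were counted, 18 of 52 splicing genes had an interval within 1 kb (34.6%, 23.2% to 48.2%), beside 16.3% of the 15843.

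Within the splicing genes, composition was close between genes with and without an interval. The median GC content was 62.0% in 17 genes with an interval at an end and 61.0% in 35 without, and the median CpG ratio was 0.943 and 0.932. In contrast, the median GC content was 68.0% over the 2519 protein-coding genes with an interval at an end and a window. Over all 15843 protein-coding genes with a window it was 62.7%, close to that of the splicing genes, and the median CpG ratio was 0.761.

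**Figure D4:**
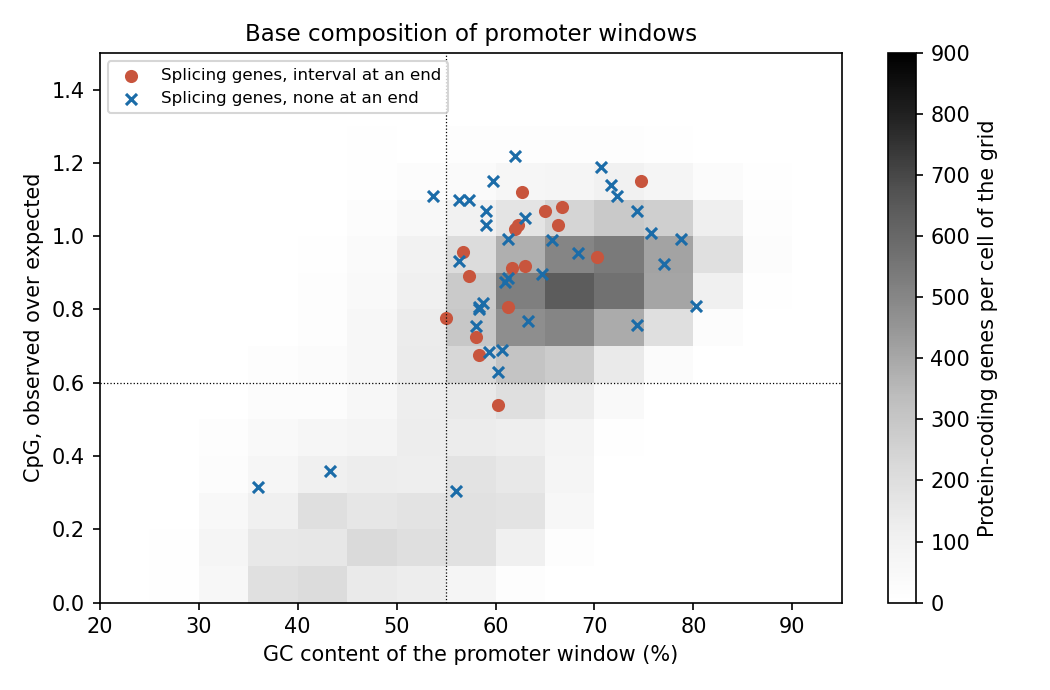
GC content (horizontal axis, %) and observed over expected CpG (vertical axis) of promoter windows of splicing genes with an interval at an end (17 circles) and without (35 crosses), over a grey grid that counts protein-coding genes. Dotted lines mark 55% and 0.6, and circles and crosses are mixed in the upper right part, which holds 47 of the 52 genes.

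Finally, short motifs were searched on both strands of the windows, as a description of their letters. The X-box, with its arms spaced as in the classical element, was found in 1 of 52 windows of the splicing genes, that of SF3B5. It was found in 0.839% of the windows of protein-coding genes and in 0.834% of those with an interval at an end. The single arm GTTGCC was in 1 of 17 splicing genes with an interval, SRSF6, and in 7 of 35 without, compared with 12.6% of protein-coding windows. The ETS core CCGGAAG was in 20 of 52 windows (38.5%), compared with 14.2% of protein-coding windows and 10.3% of all 35116 windows of the table. It was in 12 of 35 splicing genes without an interval at an end (34.3%) and in 8 of 17 with one (47.1%). Among protein-coding genes with an interval at an end it was in 20.7%. The 8 splicing genes were PRPF6, SF3A2, SF3B2, SF3B4, SF3B6, SNRPA1, SNRPE and SRSF4.

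Of the other letters searched, the GC box and the NF-Y box were near the share of all protein-coding windows. The GC box was in 55.8% of the 52 windows, compared with 58.3% of protein-coding windows, and the NF-Y box in 32.7%, compared with 36.4%. Among genes with an interval at an end, the GC box was in 11 of 17 splicing genes (64.7%), compared with 76.9% of protein-coding genes. The NF-Y box was in 5 of these 17 (29.4%), compared with 36.6%. The NRF1 core and the YY1 core were in 5 windows each (9.62%), compared with 4.28% and 3.86%. The ETS core, the NRF1 core and the YY1 core were thus in a larger share of these windows than of protein-coding windows, which for the last 2 rests on 5 windows each. No factor's binding follows from a match.

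Other genes of the splicing machinery were taken from a list of 110 symbols that the prefixes do not cover. An interval was at an end in 28 of them (25.5%, 18.2% to 34.3%), and with a score of at least 30 in 12 (10.9%, 6.35% to 18.1%), beside the 15.5% and 9.5% of all genes. The highest were LUC7L, a factor of the U1 snRNP, with a score of 62 at chr16:229178-229503, and SNRNP35, a protein of the minor spliceosome, with 53 at chr12:123458214-123458478. DDX20, a helicase of the SMN complex that assembles Sm rings, had a score of 51 at its start, and an end of INKA2 was within 1 kb. STRAP, of the same complex, had 45. HNRNPA1, which antagonises SR proteins, had intervals of score 51 and 25 beside CBX5. Among helicases of the spliceosome, DDX23 had a score of 45, DDX46 of 42 and DHX16 of 42. SRRM1, a coactivator that works with SR proteins, had a score of 40. ACIN1, which associates with the exon junction complex, had 33, but at its far end, next to CDH24.

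The other 18 of the 28 were HNRNPM, CWC15, RBM5, BUD13, CASC3, DHX8, AQR, DHX38, ISY1, TRA2A, SNRNP25, DDX42, SART1, PTBP1, PUF60, CHERP, WBP11 and HNRNPK, with highest scores from 13 to 32. By group, an interval was at an end in 8 of 20 genes of the U1 snRNP and of alternative splicing (40.0%), beside 15.5% of all genes. The count was 10 of 34 in the B and catalytic complexes (29.4%) and 4 of 12 in the U2 and branch site group (33.3%). It was 3 of 20 among further snRNP proteins (15.0%), 2 of 13 in snRNP assembly (15.4%), 1 of 5 in the exon junction complex and 0 of 6 kinases of SR proteins, where the Wilson interval reached 39.0%. A body interval only was found in CCDC12 and GEMIN4. As among the 61 genes, the share was above that of all genes without a score minimum and close to it at a score of at least 30. Among listed genes with a window rich in GC and CpG, 18 of 64 had an interval at an end (28.1%, 18.6% to 40.1%). The share was 22.7% of protein-coding genes with such a window, a value inside that Wilson interval. Both lists were chosen with an earlier surplus of intervals in such families known, so the second is no independent support for the first.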

How the data were processed

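ChIP-seq was performed by the study in MHCC-97H cells overexpressing HA-RFX6. The authors called peaks with MACS (MACS2 2.1.0.2 in the submitters' processing notes) at a q-value threshold of 0.01 and deposited a peak list with a score per line. The aligner, the handling of multiply mapped reads and the use of the input as control are not given in the sources used here. The processing notes name GRCh37, but 60.8% of the intervals lay at protein-coding gene ends of GRCh38, so GRCh38 was used. Of 6214 lines, 1 had digit separators that were put back together. Identical intervals were counted once at their highest score, which left 5022, and 3 mitochondrial ones were set aside. Positions are given 1-based.

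Gene positions came from RefSeq (GRCh38.p14), and starts and strands from its promoter windows. An interval was at an end when its midpoint was within 1 kb of either end, and in the body when it was inside and farther than that from both. No test was run, as there was 1 library. Shares carry 95% Wilson intervals, which cover counting only. All members are named except 1, which was counted but is not reported here, with the 10 highest of the pathway list. Alternatives were score minimums of 20 and 30, windows of 2 and 5 kb, any overlap of 1 bp, merging within 1 kb, nearest end, and starts only. The members and lists were chosen with earlier results of these data known, among them a surplus of intervals in broadly expressed families that include splicing genes. The assignment was tested on simulated data. Python 3.11.15, numpy 2.4.6, pandas 2.3.3, scipy 1.17.1 and matplotlib 3.10.9 were used.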

Additional observations from a re-analysis of the deposited data

How the results depend on the processing

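The number of splicing genes with an interval at an end was 19. It was 7 for scores of at least 30, when the share of all protein-coding genes fell from 15.5% to 9.5% and the pathway list went from 28 to 12 genes. For scores of at least 20 it was 13 (21.3%), compared with 13.8% of all genes. It was 21 within 2 kb (34.4%, compared with 17.2% of all genes), 23 within 5 kb (37.7% and 19.8%), 20 with any overlap (32.8% and 15.9%), 18 after merging (29.5% and 15.3%) and 17 by the nearest end (27.9% and 13.5%), where PRPF4 and PRPF8 dropped out. With starts only, LSM1, PRPF8 and SRSF2 dropped out and LSM12 and LSM5 were added. Of the 2 genes with a body interval only, 0 remained for scores of at least 30 and 1 with ends of 2 kb. The median score stayed at 27 with the lowest score of repeated lines, while that of intervals at all protein-coding gene ends went from 32 to 30, and with any overlap both were as before.

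No paired analysis was possible because a single ChIP library was made. The settings that omit replicates do not apply here either.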
